A study of Mus musculus with 4 samples.

Results

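Mesenchymal barcodes of Dnmt1-deficient mouse lung were divided by whether they carried transcripts of germline genes, and 2031 germline-positive barcodes were compared with 594 germline-negative barcodes of the same libraries. These 2625 barcodes are part of the 27815 barcodes deposited for 4 libraries; 346 further mutant barcodes that carried 1 germline gene belong to neither class. Single-cell RNA was captured from whole lungs at E18.5, just before birth, in 2 wild type libraries and 2 libraries labelled Dnmt1 CKO, whose mice carried Tbx4-rtTA and Tet-O-Cre together with Dnmt1-D/D. In such mice a doxycycline-dependent activator under Tbx4 control drives Cre in lung mesenchyme, and Cre removes part of Dnmt1. The control genotype is given as wild type with no further allele, and the timing of doxycycline and the exons removed are not given in the sources used here. All lungs were digested with collagenase IV, dispase II and DNase I and passed through red blood cell lysis. Nothing in the labels tells if the libraries are from different animals. The p-values rest on how the difference between classes varied over the 2 mutant libraries, with variance shared across genes. They may not cover the spread between animals.

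A barcode counted as mesenchymal when it had at least 500 genes, at most 20% mitochondrial UMIs (unique molecular identifiers, 1 per captured transcript), at least 3000 UMIs, at least 0.5% of its UMIs from Col1a1, Col1a2 and Col3a1 together, and no UMI of Epcam, Cdh5, Ptprc or Upk3b. This gate kept 1479 and 1492 barcodes in Dnmt1 CKO replicates 1 and 2 and 1256 and 1409 in wild type replicates 1 and 2. A barcode was called positive with UMIs in at least 2 of 6 germline genes, Dazl, Rpl39l, Taf7l, Tex101, Trap1a and Tex19.1, and negative with none of them. Those 6 genes chose the classes and are given only as a description; they were removed before every test.

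DNMT1 is the maintenance DNA methyltransferase, which copies methylation onto the new strand after DNA replication. Many genes of the germ line have CpG-containing promoters that are methylated and silent in body cells, and dividing cells without DNMT1 lose this methylation gradually. The lung mesenchyme just before birth holds matrix fibroblasts, adventitial fibroblasts, myofibroblasts, pericytes and smooth muscle cells, which lay down collagen and elastic fibres for the forming alveoli.

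The starts of 6 genes that the results turn on are shown from RefSeq on GRCm38.p6, the build of the deposited files. Each window runs from 250 bases before to 50 bases after the annotated start, 5′ to 3′ on the gene's strand, with CpG dinucleotides in capitals. Dazl is a rule gene (chr17:50293571-50293870, minus strand), Slc25a31 (chr3:40708621-40708920, plus strand), Sycp1 (chr3:102936051-102936350, minus strand) and Fkbp6 (chr5:135349995-135350294, minus strand) are germline genes outside the rule, and Zim1 (chr7:6696383-6696682, minus strand) and Dpt (chr1:164796413-164796712, plus strand) are among the genes that were lower in positive barcodes.
Dazl: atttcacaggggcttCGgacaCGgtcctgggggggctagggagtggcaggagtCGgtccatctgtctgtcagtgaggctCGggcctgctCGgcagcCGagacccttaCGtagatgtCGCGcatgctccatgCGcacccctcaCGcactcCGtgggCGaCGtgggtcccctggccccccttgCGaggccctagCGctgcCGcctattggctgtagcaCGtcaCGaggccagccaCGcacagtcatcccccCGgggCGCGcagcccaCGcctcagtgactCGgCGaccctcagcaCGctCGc
Slc25a31: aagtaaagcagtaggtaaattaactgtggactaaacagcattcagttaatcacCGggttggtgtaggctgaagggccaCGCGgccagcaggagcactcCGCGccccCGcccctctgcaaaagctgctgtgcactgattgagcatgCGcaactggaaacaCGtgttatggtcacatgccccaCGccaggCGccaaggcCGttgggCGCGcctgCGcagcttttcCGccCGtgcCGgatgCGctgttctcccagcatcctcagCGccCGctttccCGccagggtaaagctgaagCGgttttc
Sycp1: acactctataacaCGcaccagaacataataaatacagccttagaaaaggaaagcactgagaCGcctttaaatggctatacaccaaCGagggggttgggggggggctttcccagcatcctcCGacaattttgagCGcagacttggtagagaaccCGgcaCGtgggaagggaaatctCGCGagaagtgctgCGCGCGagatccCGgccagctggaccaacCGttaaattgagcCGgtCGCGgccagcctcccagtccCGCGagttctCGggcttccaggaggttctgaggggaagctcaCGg
Fkbp6: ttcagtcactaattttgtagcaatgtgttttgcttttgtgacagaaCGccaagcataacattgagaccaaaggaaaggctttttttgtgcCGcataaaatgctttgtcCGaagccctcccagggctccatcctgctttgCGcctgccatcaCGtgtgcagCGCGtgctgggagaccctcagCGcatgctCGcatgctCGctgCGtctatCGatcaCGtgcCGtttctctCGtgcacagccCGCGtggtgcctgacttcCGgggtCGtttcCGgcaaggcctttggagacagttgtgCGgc
Zim1: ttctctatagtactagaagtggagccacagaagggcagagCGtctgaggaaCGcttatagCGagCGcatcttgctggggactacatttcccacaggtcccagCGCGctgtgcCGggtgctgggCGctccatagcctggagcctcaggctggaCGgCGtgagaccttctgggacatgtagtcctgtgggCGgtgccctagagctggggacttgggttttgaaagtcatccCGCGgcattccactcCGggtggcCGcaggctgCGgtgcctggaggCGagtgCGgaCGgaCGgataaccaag
Dpt: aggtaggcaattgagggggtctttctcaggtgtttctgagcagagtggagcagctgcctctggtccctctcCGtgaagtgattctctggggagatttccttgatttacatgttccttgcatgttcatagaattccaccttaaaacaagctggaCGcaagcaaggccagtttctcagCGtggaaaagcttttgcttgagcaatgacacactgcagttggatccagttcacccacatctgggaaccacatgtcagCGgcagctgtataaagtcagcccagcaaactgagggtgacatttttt
The windows of Dazl, Slc25a31, Sycp1 and Fkbp6 held 28, 22, 21 and 21 CpGs, that of imprinted Zim1 held 20, and that of Dpt held 4. Over all 27025 windows of the RefSeq table the median was 7 CpGs. Over the windows matched to tested genes, which 73.5% of those genes had, the median was 22 CpGs. The letters CACGTG, the E-box whose central CpG can be methylated, occurred in Slc25a31, Sycp1 and Fkbp6 and not in the other 3 windows. It was also absent from the windows of Tuba3b and Sohlh2, germline genes outside the rule described below, which held 16 and 17 CpGs, and the window of Pcolce2, a gene that was lower in positive barcodes, held 17. Both strands were searched; the word is its own reverse complement and occurs in 7.24% of all windows in the table.

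Positive barcodes made up most of the gated mesenchyme of the mutant libraries. In Dnmt1 CKO replicate 1 they were 1149 of 1479 barcodes, 77.7% (exact 95% binomial interval 75.5 to 79.8%), and 150 barcodes were negative. In replicate 2 they were 882 of 1492, 59.1% (interval 56.6 to 61.6%), and 444 were negative. None of the gated wild type barcodes was positive, which allows shares of up to 0.239% and 0.213%, and 3 of them carried 1 rule gene. These intervals and limits cover counting error only, which does not hold the difference between the mutant replicates.

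**Figure D1:**
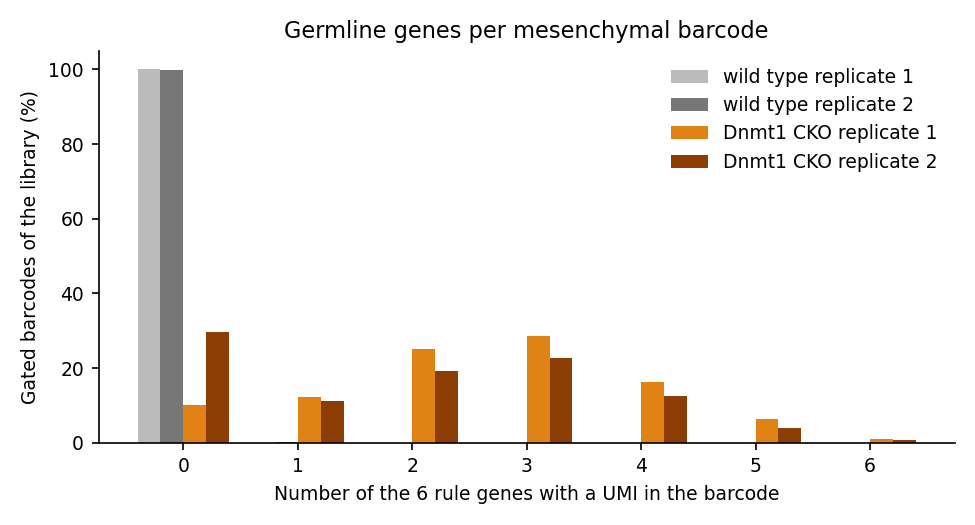
Share of gated mesenchymal barcodes (y axis, % of the library's gated barcodes) by the number of the 6 rule genes with a UMI (x axis), 1 bar per library. Wild type bars stand at 0 genes with 3 exceptions at 1 gene, while Dnmt1 CKO replicate 1 has its highest bar at 3 genes and replicate 2 at 0 genes with a second peak at 3.

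The number of rule genes per barcode was spread widely. Barcodes with 1 rule gene, just outside the positive class, numbered 180 and 166, and those with 2, just inside it, numbered 373 and 286. All 6 genes were seen in 16 and 12 barcodes. Depth hardly differed between the classes of a library, with medians of 7222 UMIs in positive and 7619.5 in negative barcodes of replicate 1, and 6091 and 5987.5 in replicate 2. When every gated barcode was thinned to 3000 UMIs, which left out none, 53.9% and 45.7% of the gated barcodes were positive. Of the barcodes positive at full depth, 69.4% and 77.3% stayed in the positive class. The class of a barcode therefore rests partly on how many of its transcripts were read.

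Free RNA from other cells can place germline UMIs in barcodes of any type. Of the mutant barcodes with UMIs of epithelial Epcam, 2.39% and 2.51% were positive after thinning, of those with endothelial Cdh5 5.85% and 6.22%, and of those with leukocyte Ptprc 2.56% and 1.31%. Their median depths before thinning were 10896 and 9796, 8123 and 6112, and 9661 and 7845 UMIs. The gated mesenchyme had 53.9% and 45.7% at equal depth. Barcodes with mesothelial Upk3b, described in a later section, had 25.6% and 27.5%. They were taken with no collagen limit and so are not set like the other groups. The part of free RNA in these shares was not tested.

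Dazl, which encodes a germ cell RNA-binding protein, stood at 529 and 782 CPM (UMIs of the gene scaled to a common total, over the summed UMIs of a class in a library) in positive barcodes of replicates 1 and 2. Rpl39l, a testis form of a ribosomal protein, stood at 269 and 276, Taf7l, a germ cell form of a transcription initiation factor subunit, at 170.4 and 161, and Trap1a, an X-linked tumour antigen gene, at 99.6 and 119. Tex19.1, a factor that restrains transposons in germ cells, and Tex101, a germ cell surface protein, had 75.8 and 81.6 and 73.9 and 78.7 CPM. In wild type gated barcodes each of the 6 had 0 or 1 UMI per library. Their absence from negative barcodes is set by the rule.

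Dnmt1 itself was not used by the rule, and it was low in positive barcodes and near the wild type level in the sum over negative ones. Dnmt1 (ENSMUSG00000004099.16, chromosome 9, 20907209 to 20959888, minus strand) stood at 5.70 and 5.15 CPM in positive barcodes of replicates 1 and 2, at 36.3 and 23.4 CPM in negative barcodes and at 26.9 and 26.4 CPM in gated wild type barcodes. Positive barcodes were the lowest in both libraries and did not overlap either other group, whereas the wild type values fell between those of the negative barcodes. The log2 fold change of positive over negative was -2.40 (SE 0.252, edgeR quasi-likelihood adjusted p = 1.30e-06 over 12592 genes tested, 2 libraries), and DESeq2 gave an adjusted p of 6.13e-05. Thinned to 3000 UMIs at the classes set at full depth, 1.74% and 1.25% of positive barcodes had a Dnmt1 UMI, against 6.67% and 6.31% of negative and 6.05% and 6.61% of wild type barcodes. These 3′ tags may lie outside the removed exons, which the labels do not name, so a residual Dnmt1 UMI in a positive barcode does not show an intact allele.

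The step in Dnmt1 lay between 0 and 1 rule genes in replicate 1 and between 0 and 2 in replicate 2. Barcodes with 1 rule gene had 4.88 CPM in replicate 1 and 12.2 in replicate 2, on 7 and 13 UMIs, and from 2 genes upward all values lay between 3.24 and 7.56 CPM. Of the 19 other tested genes in a list of the DNA methylation machinery, 1 was called: Hells, a chromatin remodeller needed for normal DNA methylation, rose (51.3 and 33.1 CPM in positive, 27.1 and 18.7 in negative, log2 0.81, edgeR adjusted p = 0.00189), a call that DESeq2 did not make (adjusted p = 0.295). The median of this list was 0.07 against 0.01 over all genes tested.

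**Figure D2:**
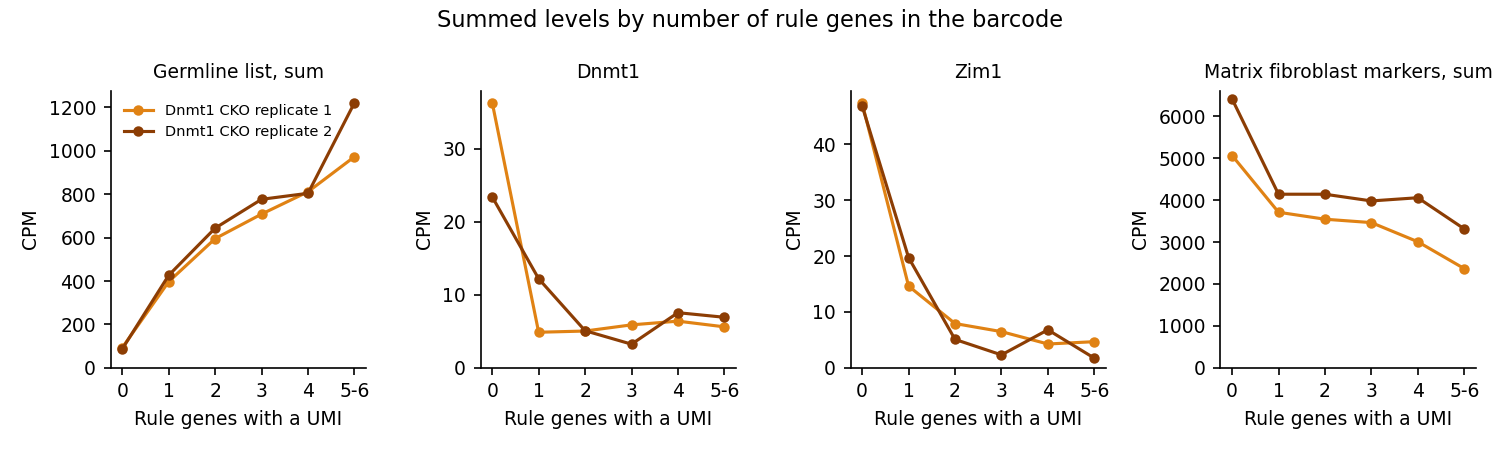
Summed levels (y axes, CPM) of the germline list without the rule genes, Dnmt1, Zim1 and the matrix fibroblast markers in Dnmt1 CKO barcodes grouped by the number of rule genes with a UMI (x axes), 1 line per library. The germline sum rises from 93 and 87.2 CPM at 0 genes to 973 and 1221 at 5 or 6, while Dnmt1 and Zim1 drop mainly between 0 and 2 genes.

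Across the transcriptome, edgeR called 2708 of 12592 genes at an adjusted p under 0.05, which is 21.5% of those tested: 1281 (10.2%) were higher and 1427 (11.3%) lower in positive barcodes. Of the called genes, 2692 had the same sign in both libraries. DESeq2 called 500 (3.97%), 215 higher (1.71%) and 285 lower (2.26%), and all 500 were among the edgeR calls with the same direction. Both positive values lay above both negative ones in 29.8% of tested genes and below them in 22.8%, so a lack of overlap in a single gene is common with 2 values a class. Counts of list members called stand beside the shares given here. The rises were larger than the falls. A log2 fold change of at least 3 was reached by 140 higher genes, of which 125 averaged under 1 CPM in wild type, and by 3 lower genes.

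**Figure D3:**
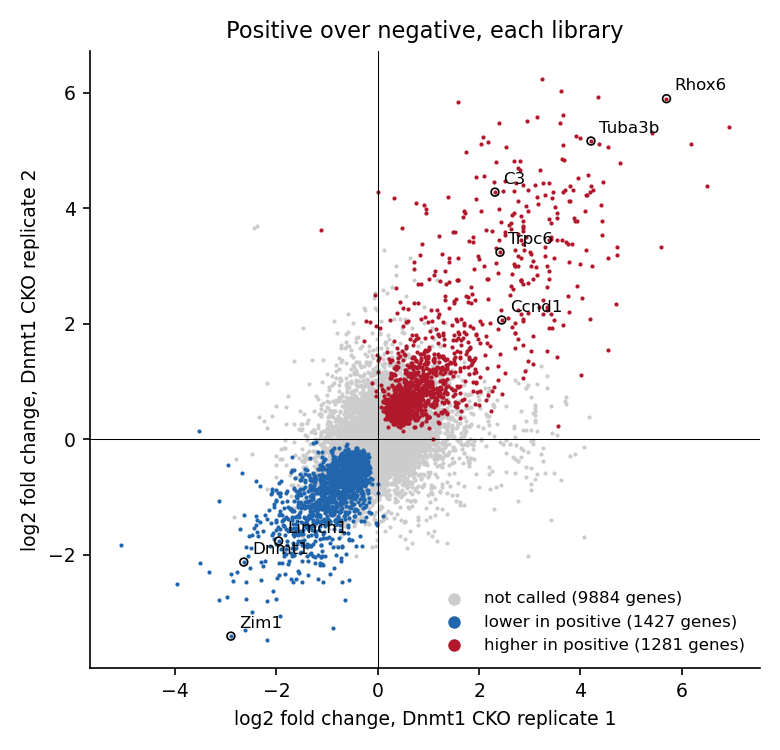
Log2 fold change of positive over negative barcodes for each tested gene in Dnmt1 CKO replicate 1 (x axis) and replicate 2 (y axis), coloured by the edgeR call over both libraries. The 1281 genes called higher reach beyond 6 on the log2 scale and the 1427 called lower mostly stay above -3, with circles at 8 genes named in the text.

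Most tested germline genes outside the rule were higher in positive barcodes. A list of genes that DNA methylation is known to silence in body cells held 50 names, of which 49 were in the files and 33 passed the filter on low counts; 30 of the 33 rose and none fell in edgeR, against 10.2% of all tested genes called higher. The median log2 fold change was 3.19, against 0.01 over all genes. The count was 17 in DESeq2, 20 of 25 tested after thinning, where 12.3% of all tested genes were called and 5.5% were higher, and 26 of 32 without the matrix fibroblast-like cluster that held most negative barcodes. The 16 members that did not pass the filter summed to 6.58 and 8.41 CPM in positive barcodes. Since genes silent in negative barcodes can pass the filter only through the positive ones, these counts describe the tested members and not the whole list.

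Summed over its 49 members the list stood at 726 and 786 CPM in positive barcodes, 397 and 426 in barcodes with 1 rule gene, 93 and 87.2 in negative and 81.1 and 79.1 in wild type ones. Much of the negative and wild type sum came from 7 members that averaged at least 1 CPM in wild type. The other 42 members summed to 533 and 564 CPM in positive, 276 and 310.0 in 1-gene and 37.2 and 22 in negative barcodes, with 3.27 and 4.03 in wild type. Negative barcodes were thus far below positive ones but above wild type. In barcodes of the same mutant libraries with Epcam, Ptprc or Cdh5 UMIs, grouped as above, these 42 genes summed to 27.5, 39.9 and 74.5 CPM in replicate 1 and 26.3, 33.4 and 65.9 in replicate 2. The negative barcodes thus lay between Epcam and Ptprc barcodes in replicate 1 and below all 3 groups in replicate 2. They were chosen to carry none of the rule genes, whereas the 3 groups were not and included barcodes with rule genes. The rule may thus set part of this order, which does not show the level of free RNA. The part of free RNA in the level of the negative barcodes was not tested.

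Among testis forms of housekeeping proteins, 6 of 7 tested rose in both edgeR and DESeq2, against 10.2% and 1.71% of all tested genes called higher. Another 12 of the 19 members in the files were not tested, and the limit of the filter given above holds for the tested ones. All of these rises but Dcaf8l belong to the germline list above and were counted there. Tuba3b, a testis alpha-tubulin, stood at 89 and 80.3 CPM in positive barcodes against 4.23 and 1.80 in negative and 0 in wild type ones (log2 4.78, SE 0.249, edgeR adjusted p = 3.12e-10). Its near-identical copy Tuba3a also rose, and reads of the pair could be split between them. Slc25a31, the germ cell ADP/ATP carrier, stood at 67.6 and 69.5 against 3.38 and 3.24 CPM (log2 4.19, SE 0.236, edgeR adjusted p = 4.66e-10), and Cyct, the testis cytochrome c, at 22.9 and 35.7 against 0.845 and 1.08 CPM (log2 4.47). For Dcaf8l, a relative of a ubiquitin ligase adaptor, the values were 47.6 and 49.2 against 1.69 and 1.80 CPM (log2 4.46). For all 4 the lowest positive value was several times the highest negative one, and wild type barcodes held at most 0.242 CPM.

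Of 28 meiosis genes in the files 13 were tested, and 11 of these rose in edgeR and 6 in DESeq2, against 10.2% and 1.71% of all tested genes called higher, with a median of 3.03. All of these rises but Tex12 belong to the germline list above and were counted there. Members silent in negative barcodes could again pass the filter only through the positive ones. Sycp1, which forms the transverse filaments of the synaptonemal complex, stood at 50.5 and 84.9 CPM in positive, 3.38 and 2.52 in negative and 0.121 and 1.93 in wild type barcodes (log2 4.50, SE 0.257, edgeR adjusted p = 5.00e-10). Its partner in the complex Tex12 had 27.3 and 36.4 against 1.69 and 1.44 CPM, and the meiotic cohesin subunit Stag3 21.5 and 19.4 against 2.54 and 1.80. Tex15 was already present in wild type, at 4.48 and 6.30 CPM, and in negative barcodes, at 7.61 and 9.73, and reached 38.4 and 41.2 in positive ones (log2 2.07). Sohlh2, a transcription factor of early germ cells, had 38.7 and 39.1 CPM in positive barcodes, 0 and 1.44 in negative ones and 0 in wild type (log2 4.77, edgeR adjusted p = 1.69e-08). Positive and negative values did not overlap for these 5 genes, which were picked for their size or adjusted p.

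The piRNA pathway, which cuts and methylates transposons in the germ line, had 20 members in the files. Of the 11 tested, 10 rose in edgeR and 2 in DESeq2, against 10.2% and 1.71% of all tested genes called higher, with a median of 2.21. All of these rises but Gtsf1 were counted in the germline list above, and the same limit of the filter holds for them. Fkbp6, a co-chaperone of piRNA loading, stood at 33.7 and 34.6 CPM against 1.69 and 1.08 (log2 4.33, edgeR adjusted p = 2.51e-08). Mov10l1, an RNA helicase of piRNA precursors, had 28.5 and 31 against 2.54 and 0 CPM. Its ratio over both libraries was 38.9 with an exact counting interval of 13.2 to 189, and it was called by edgeR (adjusted p = 5.78e-07) and not by DESeq2 (adjusted p = 0.144). The germ cell helicase Ddx4 stood at 14.5 and 12.4 against 0.845 and 0.360 CPM, a ratio of 27 (interval 7.38 to 224). Both helicases were higher in the positive barcodes of each library.

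Cancer-testis and placental genes, a group that includes the X-linked Rhox homeobox cluster, rose in 8 of 10 tested members in edgeR and 4 in DESeq2. Of all tested genes 10.2% and 1.71% were called higher. Another 14 of the 24 members in the files were not tested, and the same limit of the filter holds for the tested ones. Rhox5 stood at 209 and 191 CPM in positive, 34.7 and 15.9 in negative and 3.51 and 5.80 in wild type barcodes (log2 3.07, SE 0.174, edgeR adjusted p = 4.66e-10). Its level in negative barcodes thus exceeded that in wild type, as it did for Psg23, a pregnancy-specific glycoprotein gene, with 36.5 and 52.5, 5.07 and 1.44 and 0.121 and 0 CPM. Rhox6 had no UMI in any negative or wild type barcode and 22 and 24.4 CPM in positive ones, at least 30.3-fold higher against a floor of 3 UMIs over the negative group; edgeR called it (adjusted p = 1.86e-07) and DESeq2 did not (adjusted p = 0.415). Rhox2a rose to 32.5 and 24.9 CPM from 3.38 and 2.52, although this gene has near-identical copies between which reads could be split.

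Further genes were among the largest rises. Clvs1, which encodes an endosomal lipid-binding protein, stood at 88.5 and 159.7 against 9.30 and 2.88 CPM (log2 4.62, edgeR adjusted p = 1.14e-09), and the glutathione transferase gene Gstp2 at 26.2 and 34.5 against 1.69 and 0.360. Dpep3, a membrane dipeptidase of testis, had 20.4 and 28.8 against 0.845 and 0.360 CPM, and the testis deubiquitinase Usp26 had 27.4 and 20.1 against 1.69 and 0 and was not called by DESeq2 (adjusted p = 0.0625). Serpinb1c, a protease inhibitor gene, rose to 64.4 and 35.3 CPM from 7.61 and 0.360 and was at 0 in wild type (log2 3.86), while its paralogue Serpinb6a fell (94.2 and 94.5 against 136 and 135 CPM, log2 -0.56, edgeR adjusted p = 0.00105, DESeq2 0.12). In each of these rises, as their choice makes likely, both positive values exceeded both negative ones. Gstp2 and Serpinb1c were each among the leading genes of a cluster, described below, that held few negative barcodes.

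**Figure D4:**
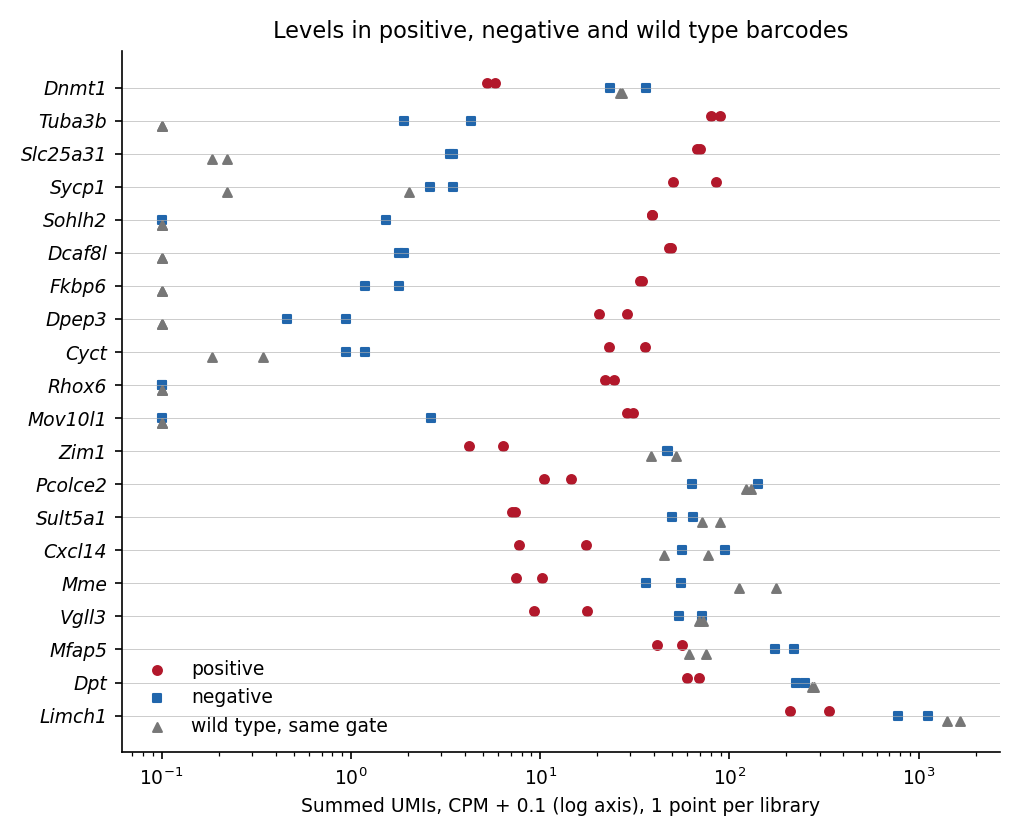
Levels of Dnmt1, 10 genes called higher and 9 genes called lower (rows) as CPM + 0.1 on a log axis, with 1 point per library for positive, negative and gated wild type barcodes. Positive points stand to the right of all negative and wild type points for the 10 rises, and to the left of all negative points for Dnmt1 and the 9 falls.

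The E-box letters were also counted in the RefSeq windows of the germline list. Of the 30 list members called higher, 25 matched a window, with a median of 20 CpGs against 22 in the matched tested genes. CACGTG was held by 44% of these 25, by 10.6% of the matched tested genes and by 1 of the 6 rule genes. The 25 were listed as genes silenced by methylation and then called higher here, so their share does not describe the positive class. The letters TCCCGC, a core of E2F-type sites, occurred on either strand in 52% of the 25 list windows, in 37.2% of the matched tested genes and in 20% of all windows. Only 73.5% of all tested genes matched a window, so the comparison with them is void and the shares are a description. Of the genes called higher by a log2 fold change of 2 or more, 60.7% matched a window. Those windows had a median of 10 CpGs, and 15.5% held CACGTG. The same limit holds for these shares.

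Imprinted genes, which are expressed from 1 parental copy under the control of DNA methylation, moved both ways: 11 of 27 tested rose and 7 fell in edgeR, 8 and 4 in DESeq2, against 10.2% and 11.3% of all tested genes in edgeR and 1.71% and 2.26% in DESeq2. Zim1, a zinc-finger gene of the Peg3 domain, had the most negative log2 fold change among the named falls. It stood at 6.25 and 4.12 CPM in positive, 47.3 and 46.9 in negative and 38.3 and 52.3 in wild type barcodes (log2 -3.13, SE 0.225, edgeR adjusted p = 8.03e-09, DESeq2 1.17e-11). Negative and wild type values overlapped and both lay far above the positive ones. Barcodes with 1 rule gene were between the classes, at 14.6 and 19.7 CPM.

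Grb10, a growth-restraining adaptor of the insulin receptor pathway, fell in the same way, with 164 and 91.9 CPM in positive, 396 and 328 in negative and 367 and 359 in wild type barcodes (log2 -1.59, edgeR adjusted p = 1.11e-08). H19, a long non-coding RNA normally read from the maternal copy, rose from 899 and 563 CPM in negative to 2014 and 1602 in positive barcodes, with 514 and 473 in wild type (log2 1.29, edgeR adjusted p = 1.76e-08). Rian, a non-coding RNA of the Dlk1 domain, rose to 522 and 479 from 292 and 199 CPM (log2 1.01). The other rises were Mirg, Plagl1, Impact, Meg3, Mest, Dlk1, Ndn, Peg10 and Kcnq1ot1, and the other falls Nnat, Igf2r, Igf2, Peg3 and Gnas. Genes usually expressed from the maternal copy and genes usually expressed from the paternal copy were found in both directions. Without the cluster that held most negative barcodes, 4 rose and 6 fell.

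p53 target genes rose in 10 of 23 tested members and fell in none by edgeR, with 3 rises in DESeq2 and a median of 0.61. Of all tested genes 10.2% were called higher in edgeR and 1.71% in DESeq2. The list summed to 2549 and 2233 CPM in positive, 1763 and 1809 in negative and 2174 and 2520 in wild type barcodes. Positive and wild type sums thus overlapped, and the negative sums were the lowest. Cdkn1a, the p21 inhibitor of cyclin-dependent kinases, stood at 103 and 165 CPM in positive, 43.1 and 50.8 in negative and 47.7 and 49.6 in wild type barcodes (log2 1.49, SE 0.138, edgeR adjusted p = 2.42e-07). Gdf15, a secreted stress factor, had 11 and 16.8 against 0 and 1.44 CPM (log2 3.43). Rrm2b, a p53-induced ribonucleotide reductase subunit, stood at 50 and 50.3 against 19.4 and 25.2 CPM (log2 1.07, edgeR adjusted p = 1.23e-04, DESeq2 0.0548). Of 13 tested apoptosis effectors 6 rose and 2 fell in edgeR, and DESeq2 called none. Casp6, which encodes an effector caspase, was among the falls, at 17.9 and 14.9 CPM in positive against 32.1 and 25.6 in negative barcodes.

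Of 11 tested cell cycle inhibitors and D cyclins 4 rose and none fell in edgeR (3 rises in DESeq2), and 2 of the rises were Ccnd1 and Ccnd2, which encode D-type cyclins that drive entry into the cell cycle. Ccnd1 stood at 69.2 and 91.9 CPM in positive, 11.8 and 21.3 in negative and 9.69 and 6.64 in wild type barcodes (log2 2.17, SE 0.166, edgeR adjusted p = 2.06e-08), and Ccnd2 at 428 and 412, 245 and 183 and 144 and 110.2 CPM (log2 0.95). Of 30 tested S phase genes 3 rose, and of 32 G2 and M phase genes 4 rose and 1 fell in edgeR, which is 10% and 15.6% called against 21.5% of all tested genes, with no call in DESeq2 for either list. A UMI of Mki67 or Top2a was present in 12.7% and 10.1% of positive and 10% and 6.76% of negative barcodes after thinning, and in 6.05% and 3.56% of wild type ones. Without the cluster that held most negative barcodes, 14 of the 32 G2 and M phase genes were called lower and none higher.

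Genes of the response to amino acid shortage split by edgeR into 7 that rose and 4 that fell of 20 tested, 2 and 3 in DESeq2. Mthfd2, a mitochondrial folate enzyme, stood at 25.4 and 28.8 against 3.38 and 7.57 CPM (log2 2.07, edgeR adjusted p = 2.08e-05), and the mTORC1 restrainer Ddit4 at 35.6 and 24.5 against 9.30 and 9.01 (log2 1.55). Vldlr, a lipoprotein receptor, had 89.4 and 83.5 against 180.1 and 181 CPM (log2 -1.10), and Nupr1, a stress-induced chromatin protein, 85.2 and 99.7 against 163 and 206 (log2 -1.04). The list as a whole had a median of 0.32.

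Among acute-phase and complement genes 4 of 14 rose and 4 fell. C3, the central complement component, stood at 54.3 and 172 CPM in positive and 10.1 and 8.29 in negative barcodes, with 6.30 and 10.2 in wild type (log2 3.75, SE 0.247, edgeR adjusted p = 2.78e-09). Saa3, an acute-phase apolipoprotein, was at 811 and 1551 CPM in positive and 297 and 83.3 in negative barcodes (log2 2.78, edgeR adjusted p = 2.08e-05), but DESeq2 gave an adjusted p of 0.204, and the negative barcodes of replicate 1 held far more than those of replicate 2. Serping1, the C1 inhibitor, fell to 237 and 315 CPM from 423 and 424 (log2 -0.67). Of 16 tested interferon genes 2 rose and 1 fell in edgeR, which is 18.8% called against 21.5% of all tested genes, and none was called in DESeq2, with a median of 0.03. Bst2, an antiviral tether, stood at 37.3 and 98.8 against 27.9 and 40 CPM and Isg15, a ubiquitin-like interferon target, at 8.34 and 24.9 against 2.54 and 9.37, both with higher values in replicate 2. C3, Saa3 and Bst2 were among the leading genes of a cluster, described below, that came almost wholly from replicate 2 and held few negative barcodes.

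Most matrix fibroblast markers were lower in positive barcodes. Of 14 tested matrix fibroblast markers 10 fell and none rose in edgeR, against 11.3% of all genes called lower, and 6 fell in DESeq2. The summed markers stood at 3266 and 3980.1 CPM in positive, 5064 and 6412 in negative and 8935 and 10682 in wild type barcodes, so both mutant classes lay below wild type and the positive class lowest. Limch1, an activator of non-muscle myosin, stood at 208 and 336 against 775 and 1119 CPM (log2 -1.86, SE 0.0974, edgeR adjusted p = 3.12e-10). Mme, the membrane peptidase neprilysin, had 7.35 and 10.1 against 36.3 and 55.5 CPM (log2 -2.38) and Nebl, an actin-binding protein gene, 42.4 and 49.1 against 115 and 172 (log2 -1.68). In a sum over barcodes, fewer cells of a subtype and less RNA per cell cannot be told apart.

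The subtypes were unequally divided between the classes. Leiden clustering of the gated mutant barcodes, made without the germline and cell cycle genes, gave 12 clusters, and 1 of them, matrix fibroblast-like by Limch1, Mme, Nebl and Gpx3 among its 10 leading genes, which also included Pcolce2, Vgll3, Dtna and Bmper, held 67 of 150 and 256 of 444 negative barcodes but 1 of 1149 and 5 of 882 positive ones. These 8 genes led the cluster, so their fall between the classes and its makeup are the same observation. When that cluster was left out, a choice made after seeing the data, 1693 genes (13.8%) were called by edgeR, 735 higher (6%) and 958 lower (7.82%), and of the 14 matrix fibroblast markers 6 were higher and 3 lower. The fall of Tcf21, a transcription factor of lung fibroblasts, was reversed, from a log2 fold change of -0.64 to 0.14 (edgeR adjusted p = 0.545). Wnt2, a signal from lung mesenchyme to epithelium, went from -0.60 to 0.85 (edgeR adjusted p = 0.01). Rian, Hells, Casp6, Vldlr, Bst2, Isg15, Igf2r, Bmper, Egr1, Nebl, Myl7, Tnni3, Upk1b and Matn4, all described here, kept their direction and lost their call there. Dnmt1 stayed at -2.36 (edgeR adjusted p = 4.16e-04).

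In 3 clusters each library held at least 10 barcodes of each class. A cluster led by Igfbp2 and Cxcl14 was 50% and 44.8% positive in replicates 1 and 2, a cluster led by Postn and Ebf1 60.2% and 40%, and a contractile cluster led by Actg2, Cnn1 and Hhip 35.5% and 11.5%. Over these clusters together the germline list summed to 419 and 490.1 CPM in positive and 60.3 and 58.3 CPM in negative barcodes. Dnmt1 had 4 and 1 UMIs in the positive barcodes, or 4.97 and 1.67 CPM, and 8 and 9 in the negative ones, or 20.1 and 10.3 CPM. The exact Poisson intervals overlapped in each library, 1.35 to 12.7 against 8.68 to 39.6 CPM in replicate 1 and 0.0423 to 9.32 against 4.70 to 19.5 in replicate 2. The negative barcodes of the clusters differed, on few UMIs. They had 0 and 3.49 CPM (0 and 1 UMIs) in the cluster led by Igfbp2 and Cxcl14. In the cluster led by Postn and Ebf1 they had 32.4 and 27.2 CPM (6 and 6 UMIs), and in the contractile cluster 17.2 and 5.43 CPM (2 and 2 UMIs). In the 8 remaining clusters, the library that gave most barcodes was 76.8% to 96.7% positive, and 4 of them came almost wholly from 1 library. Some rises given in this report were among their 10 leading genes. C3, Saa3 and Bst2 led a cluster with 2 and 237 positive and 0 and 4 negative barcodes in replicates 1 and 2. The cluster of Serpinb1c held 364 and 7 against 9 and 0, and that of Gstp2 56 and 87 against 0 and 1. That of Egr1 and Egr3 held 157 and 40 against 2 and 2. How far these rises go beyond the makeup of the clusters was not tested.

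Adventitial fibroblast markers fell in 9 of 11 tested members and rose in 1, 5 and none in DESeq2, with a median of -0.86. Dpt, which encodes the matrix protein dermatopontin, stood at 69.4 and 59.4 CPM in positive, 224 and 252 in negative and 280.4 and 274 in wild type barcodes (log2 -1.93, SE 0.113, edgeR adjusted p = 6.85e-10). Within the cluster led by Postn and Ebf1 its direction was reversed. Mfap5, a microfibril protein gene, followed another pattern: negative barcodes, at 221 and 174 CPM, exceeded both positive ones, at 41.1 and 55.9, and wild type, at 75.3 and 61.3 (log2 -2.05). Itm2a, a membrane protein gene, was likewise highest in negative barcodes, with 359 and 299.9 CPM against 106 and 81.1 in positive and 163 and 127 in wild type. Without the matrix fibroblast-like cluster 10 of the 11 adventitial markers were called lower.

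Of the other large falls, Pcolce2, an enhancer of procollagen processing, stood at 10.4 and 14.4 CPM in positive and 63.4 and 142 in negative barcodes (log2 -3.01, SE 0.161, edgeR adjusted p = 3.12e-10). The cytosolic sulfotransferase gene Sult5a1 had 7.24 and 7.03 against 64.2 and 49.7 CPM and the chemokine gene Cxcl14 7.68 and 17.3 against 55.8 and 94.8. Vgll3, a cofactor of TEAD transcription factors, had 9.21 and 17.7 against 54.1 and 71.4 CPM, Dtna, a dystrophin-associated protein gene, 9.98 and 14.6 against 47.3 and 67, and Agtr2, the type 2 angiotensin receptor gene, 16.6 and 7.03 against 54.9 and 32.4. No positive value overlapped a negative one in these 6 genes, which were picked as large falls, and each log2 fold change was -1.94 or lower. The falls of Pcolce2, Vgll3 and Dtna are the same observation as the makeup of the matrix fibroblast-like cluster, which they led.

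More extracellular matrix genes fell than rose. Of 22 tested collagen genes 3 belong to the gate that both classes had to pass; of the other 19, 10 fell and none rose in edgeR (6 falls in DESeq2). Of 18 elastic fibre genes 12 fell and 1, Fbln1, rose (5 and 1 in DESeq2). Eln, the elastin gene, stood at 2898 and 3137 CPM in positive, 6049 and 8306 in negative and 9654 and 6700.1 in wild type barcodes (log2 -1.28, SE 0.0817, edgeR adjusted p = 1.77e-09). Col14a1, a fibril-associated collagen gene, had 188 and 164 against 386 and 291 CPM (log2 -0.97). Col1a1 had 2975 and 2449 against 5068 and 3755 (log2 -0.74), although it is a gene of the gate. Bgn, a small proteoglycan of collagen fibrils, had 1031 and 1251 against 1738 and 1936 CPM (log2 -0.73), 1 of 5 proteoglycan genes of 10 tested that fell. Another 1 of the 10, Lum, rose, and DESeq2 called 2 falls and no rise in this list. Mfap4, a partner of elastic fibres, had 3384 and 4038 against 5931 and 8371 CPM (log2 -0.97), but its log2 fold change was 0.05 without the matrix fibroblast-like cluster. For elastic fibre genes 11 of 18 were still called lower there, and for collagens outside the gate 9 of 19, with 1 higher.

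More contractile and mural genes fell than rose. Smooth muscle markers fell in 6 of 10 tested members in edgeR and 4 in DESeq2, and in 10 of 10 without the matrix fibroblast-like cluster. The contractile cluster led by Actg2, Cnn1 and Hhip held 16 and 74 negative but 11 and 11 positive barcodes in replicates 1 and 2. It stayed in when the matrix fibroblast-like cluster was left out, which left 83 and 188 negative barcodes. The falls of Cnn1 and Hhip and the makeup of this contractile cluster are the same observation. Cnn1, the smooth muscle protein calponin, stood at 29.9 and 13.7 against 52.4 and 64.9 CPM (log2 -1.56, edgeR adjusted p = 3.87e-05), and Tpm2, a tropomyosin gene, at 174 and 192 against 414 and 382 (log2 -1.16). Myofibroblast markers fell in 9 of 12 and rose in 2. Hhip, an antagonist of hedgehog ligands, had 142 and 165 CPM in positive, 262 and 433 in negative and 596 and 696 in wild type barcodes (log2 -1.19, edgeR adjusted p = 3.39e-07).

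Pericyte markers fell in 7 of 13 tested members, and 1, Trpc6, rose. Trpc6, a calcium-permeable channel gene, stood at 44.1 and 83.2 CPM in positive, 7.61 and 8.29 in negative and 3.75 and 0.841 in wild type barcodes (log2 3.02, SE 0.212, edgeR adjusted p = 6.11e-09). Rgs5, a regulator of G protein signalling, had 30.9 and 62.6 against 106 and 118 CPM (log2 -1.33), and Ndufa4l2, a mitochondrial protein gene of pericytes, 42.4 and 56.4 against 103 and 144 (log2 -1.35). Rgs5 was among the leading genes of the contractile cluster, so its fall and the makeup of that cluster are the same observation.

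**Figure D5:**
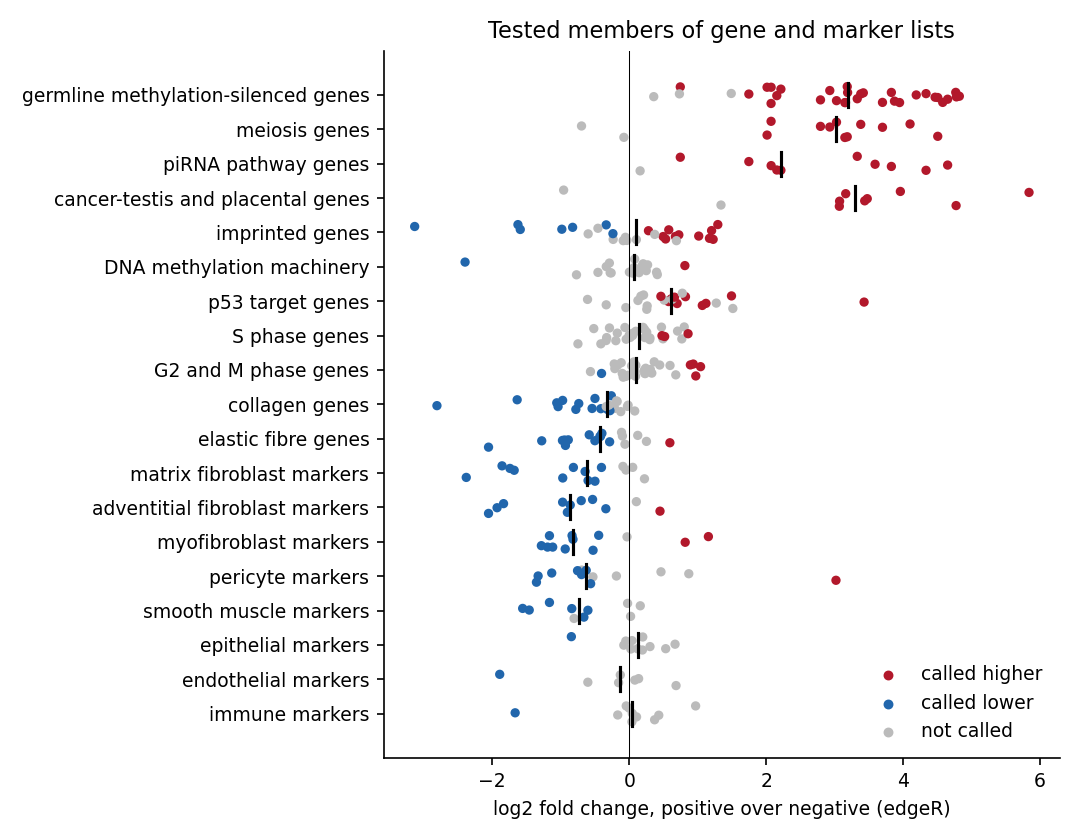
Log2 fold change of positive over negative barcodes in edgeR (x axis) for each tested member of 19 gene and marker lists (rows), with the list median as a black bar. Germline, meiosis, piRNA and cancer-testis members lie mostly beyond 2, fibroblast, mural and matrix members mostly below 0, and epithelial, endothelial and immune markers around 0.

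Signalling genes changed less evenly. In the insulin-like growth factor system 8 of 17 tested genes fell and 1 rose (4 and none in DESeq2); the receptor gene Igf1r had 78.3 and 76.7 against 159 and 147 CPM (log2 -1.02) and the binding protein gene Igfbp3 18.9 and 17.2 against 71.9 and 32.4 (log2 -1.46). Of 10 natriuretic peptide and cGMP genes 5 fell and none rose, with Prkg1, the cGMP-dependent kinase gene, at 30.9 and 31.7 against 62.6 and 71.4 CPM (log2 -1.14). Among Tgf-beta and Bmp genes 6 of 25 fell and 2 rose. Bmper, a secreted Bmp modulator, had 5.92 and 7.03 against 23.7 and 38.2 CPM (log2 -2.23), and Id1, a Bmp target, 264 and 294 against 139 and 181 (log2 0.76). Wnt genes split into 3 rises and 4 falls of 20 and Fgf genes into 1 and 5 of 15, none of them called by DESeq2. Of 15 hedgehog pathway genes 3 rose and 1, Hhip, fell, of which DESeq2 called Hhip alone.

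Of 16 tested Hox genes 5 rose in edgeR and none fell, while DESeq2 called none; Hoxa7, a homeobox patterning gene, stood at 44.5 and 40.1 against 22.8 and 16.9 CPM (log2 1.08). Immediate early and heat shock genes, which respond to tissue digestion, rose in 10 and fell in 5 of 22, 6 and 1 in DESeq2. Egr1 had 989 and 721 against 605 and 449 CPM (log2 0.65) and Egr3 81.3 and 62.4 against 17.8 and 22 (log2 1.69). Both were among the leading genes of a cluster, given above, that held few negative barcodes. Prdx1, an antioxidant peroxiredoxin gene, stood at 900.3 and 912 CPM in positive, 502 and 446 in negative and 434 and 338 in wild type barcodes (log2 0.90, edgeR adjusted p = 1.61e-06), 1 of 3 rises and 6 falls among 22 detoxification genes. Gpx3, a secreted glutathione peroxidase gene and lipofibroblast marker, fell to 58.1 and 76.7 from 179 and 262 CPM (log2 -1.74). Of 13 lipofibroblast genes 4 fell and 1 rose.

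Markers of other cell types were called in both directions. The gate excludes barcodes by Epcam, Cdh5, Ptprc and Upk3b alone and has no criterion against the other types named here. All calls among epithelial, endothelial, immune and mesothelial markers were lower, and the higher calls were among cardiomyocyte and erythroid markers. Epithelial markers summed to 394 and 1169 CPM in positive and 367 and 1127 in negative barcodes, with 1 of 11 tested called lower, endothelial markers to 80 and 91.1 and 96.4 and 81.8, with 1 of 7 called lower, and immune markers to 69.1 and 90.9 and 50.7 and 115, with 1 of 10 called lower. Mesothelial markers summed to 18.4 and 43.4 and 38 and 50.1 CPM, and 2 of 4 tested were called lower, Aldh1a2, which makes retinoic acid, and Upk1b, a uroplakin. Cardiomyocyte markers summed to 68.1 and 79.9 and 31.3 and 71.4 CPM, and 2 of 5 tested were called higher, the heart myosin light chain gene Myl7 and the heart troponin gene Tnni3, but the log2 fold change of Myl7 was -0.73 (edgeR adjusted p = 0.215) without cycling barcodes, and after thinning, when neither was tested, the 3 tested members were called lower. Of the other marker lists, 1 of 2 tested chondrocyte markers, Matn4, was called lower, and none of 2 Schwann and neural and 1 skeletal muscle markers was called. These were edgeR calls, of which DESeq2 made none, and the lists are small beside shares of 10.2% higher and 11.3% lower over all tested genes. Erythroid markers behaved otherwise: all 5 tested were called higher by edgeR and none by DESeq2, and their sum was 7418 and 5929 CPM in positive and 7337 and 1445 in negative barcodes. The 2 classes thus differed in haemoglobin RNA in replicate 2 and hardly in replicate 1; its part in the other results was not tested.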

How the data were processed

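The deposited matrices hold UMI counts of genes in barcodes; per the submitters' processing notes the authors used bcl2fastq 2.20, Cell Ranger 3.1.0, Seurat and GRCm38.p6, with no role given. The barcode gate, the classes and all gene lists were chosen with earlier results of these data known. Each library's 2 classes share 1 suspension, which pairs the sums. Counts were summed per library and class without the 6 rule genes, filtered with filterByExpr, scaled with TMM and tested with the edgeR 4.0.16 quasi-likelihood F-test with library as a block (R 4.3.3, prior count 2). Adjusted p-values are Benjamini-Hochberg over all 12592 tested genes, and calls are at 0.05. SE was taken as the log2 fold change divided by F to the power 0.5. The block left 1 residual degree of freedom, against a median prior of 17.6, so most of each gene's variance was borrowed from the other genes. An exact sign-flip test over 2 libraries cannot go below p = 0.5 and was not used. DESeq2 1.42.0 with the same block gave no adjusted p for 1221 genes, 162 of them edgeR calls.

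Summed depths were 9117166 and 5829799 UMIs in positive and 1182954 and 2774353 in negative barcodes, so values of negative barcodes carry the larger counting error. Named genes are Dnmt1, the 12 largest rises and falls among called genes whose mean log2 CPM reached 4 and whose direction was shared by both libraries (unnamed gene models left out), and up to 4 members per list with the smallest adjusted p; Tuba3a and Fbln1 and list members given by name alone fall outside it and were named after their values were seen. The rule picks 169 genes, and the text gives 86 of them. Scrublet marked 2 and 5 gated mutant barcodes as doublets, which were kept. Libraries shared 8 to 16 barcode sequences, and at most 1 among gated barcodes. Clusters came from scanpy 1.11.5 and leidenalg 0.10.2 (2000 variable genes, 30 components, 15 neighbours, resolution 1) without integration. The fit was also run on simulated counts, and the outcome is not given here. Positions are from GENCODE vM21. The alternatives were other scalings, no filter, DESeq2, no block, each library alone, thinning to 3000 UMIs, stricter gates (3 rule genes, 6000 UMIs, 1% collagen, 10% mitochondrial), no doublets, no cycling barcodes, depth-matched negatives and a single cluster.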

Additional observations from a re-analysis of the deposited data

Results flagged for a closer look

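Barcodes with Upk3b, a marker of the mesothelium that covers the lung, are outside the gate, yet many carried the rule genes in the mutant. Those counted had no UMI of Epcam, Cdh5 or Ptprc and were taken with no collagen limit. Of these, 22 of 43 (51.2%, exact 95% interval 35.5 to 66.7%) in Dnmt1 CKO replicate 1 and 32 of 51 (62.7%, interval 48.1 to 75.9%) in replicate 2 had UMIs in at least 2 of the 6 genes, and none of 39 and 32 wild type Upk3b barcodes did, which allows up to 7.69% and 9.38%. They are given here because the comparisons above leave these barcodes out and the wild type shares are 0. After thinning to 3000 UMIs the shares were 25.6% and 27.5%, against 53.9% and 45.7% of the gated mesenchyme. Their sum over the germline list without the rule genes was 535 and 797 CPM.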

How the results depend on the processing

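The direction of Dnmt1 held under every alternative that gave a value, with log2 fold changes from -2.65 to -1.54, all called; within Dnmt1 CKO replicate 1 and replicate 2 alone, which allow no test, it was -2.64 and -2.13. The count of called genes depended on the choices. Against 2708 (1281 higher, 1427 lower), edgeR called 535 (271 and 264) with no replicate block, 1267 (568 and 699) after thinning, 1742 (822 and 920) above 6000 UMIs, 1133 (470 and 663) at a collagen share of 1%, 99 (55 and 44) within the 1 cluster with 20 or more barcodes of each class in each library and 1693 (735 and 958) without the cluster holding most negatives. DESeq2 called 500 (215 and 285), and depth-matched negatives gave 928 falls. All 535 calls made with no replicate block were among the main calls. Of the 85 other called genes that the text gives under the naming rule, 62 kept their call with no replicate block, 67 in DESeq2, 77 of 81 tested after thinning and 68 without the cluster of negatives; within the single cluster 14 of 41 tested kept it, 24 lost it and 3 reversed. All 12 largest rises were smaller after thinning. Classes were called again on the thinned counts, and the negative class grew from 150 and 444 to 265 and 515 barcodes. It then held 60 and 26 barcodes that were positive at full depth. The part of this change of class in the smaller rises was not tested. The log2 fold changes of the 12 rises then ran from 1.44 for Rhox6 to 3.22 for Dpep3, against 5.84 and 4.82 at full depth. Tuba3b went from 4.78 to 1.46, Slc25a31 from 4.19 to 1.51 and C3 from 3.75 to 1.58. The positive share was 53.9% and 45.7% after thinning and 52.5% and 39.9% at 3 or more rule genes. Reversed log2 fold changes, with the cause not tested, were 0.041 for Dpt, 0.22 for Mfap4 and 0.027 for Tcf21 within the single cluster, and 0.048 for Mfap4, 0.14 for Tcf21 and 0.85 for Wnt2 without the cluster of negatives, and -0.73 for Myl7 without cycling barcodes. Other scalings, no filter, the mitochondrial limit, doublets, cycling barcodes and 3 rule genes kept the count within 1.5 times. The negative class of replicate 1, with 150 barcodes and 1182954 UMIs, sets the precision: at that depth 3 UMIs correspond to 2.54 CPM.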

Other observations

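Chromosome X held 3.48% of the tested genes with a position, 5.05% of the genes called higher and 6.4% of those called lower in positive barcodes. These shares are a description; a library's 2 classes come from the same suspension.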
